A study of Mus musculus with 9 samples.

Results

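The MHC class II presentation genes described here are 7 of the 32427 genes in the deposited matrices. They are H2-Aa, H2-Ab1, H2-Eb1, H2-DMa, H2-DMb1, Cd74 and Ciita, chosen by name and followed across mice, groups and cell types. All 7 had UMIs (unique molecular identifiers, 1 per captured molecule) in every library, Ciita the fewest with 1070 in all. Class II molecules carry peptides from endocytosed proteins to the cell surface, where CD4+ T cells read them. H2-Aa and H2-Ab1 encode the α and β chains of the mouse I-A molecule and H2-Eb1 the β chain of I-E. Cd74 encodes the invariant chain, which fills the groove until the molecule reaches endosomes, and H2-DMa and H2-DMb1 encode the chaperone that exchanges the invariant chain remnant for peptide. Ciita encodes the coactivator that switches the set on. Dendritic cells and B cells express these genes constitutively and macrophages to varying degrees, and interferon gamma can induce them in other cells, kidney tubular epithelium included.

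CIITA does not bind DNA itself but is held by factors at a short stretch before the start site, in which an X box is followed at a fixed distance by a Y box (the CCAAT sequence, ATTGG when read on the other strand). The 150 bases before the start are shown for the 3 members with such letters, from RefSeq on mouse build GRCm38.p6. Capitals mark the Y box ATTGG or CCAAT, the X box and the cyclic AMP response element (CRE) TGACGTCA, searched on both strands. The H2-Aa stretch lies at chr17:34287824-34287973 on the minus strand, that of H2-Eb1 at chr17:34305717-34305866 on the plus strand and that of H2-DMb1 at chr17:34153041-34153190 on the plus strand.
H2-Aa: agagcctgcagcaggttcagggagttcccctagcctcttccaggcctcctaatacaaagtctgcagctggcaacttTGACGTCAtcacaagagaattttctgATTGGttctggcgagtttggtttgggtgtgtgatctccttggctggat
H2-Eb1: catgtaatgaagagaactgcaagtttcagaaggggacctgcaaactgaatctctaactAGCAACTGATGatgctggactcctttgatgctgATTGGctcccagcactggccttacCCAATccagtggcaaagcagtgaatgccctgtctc
H2-DMb1: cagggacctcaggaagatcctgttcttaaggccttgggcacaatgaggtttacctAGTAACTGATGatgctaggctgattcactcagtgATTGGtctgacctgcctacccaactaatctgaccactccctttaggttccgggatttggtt
In H2-Eb1 the X box began at -92 and the first Y box at -59, with 22 bases between them. In H2-DMb1 they began at -95 and -61, with 23 bases between them. H2-Aa held no match to these X box letters but a CRE at -74, followed after 18 bases by a Y box at -48. The search used a strict pattern, so an X box of other letters in H2-Aa would be missed. A Y box alone is common, in 24.5% of 32851 RefSeq promoter windows of this length, whereas the X box was in 0.122% and the CRE in 1.36%. A Y box together with either was in 132 windows (0.402%). Both promoter entries of H2-DMa held none of these letters within 150 bases. Promoters of H2-Ab1, Cd74 and Ciita were not analysed here. A match of letters is a description and not a measured binding site.

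The levels come from droplet single-cell RNA libraries of kidneys from 9 male C57BL/6 mice, 3 per group. The mice were 6 weeks old on arrival, before an adaptation period. Control mice received intraperitoneal saline. AKI-CKD mice, a model in which acute injury of the kidney (AKI) passes into its chronic disease (CKD), received 4 weekly intraperitoneal injections of cisplatin at 8 mg/kg, a nephrotoxic drug. AKI-CKD + EGT mice received the same cisplatin and, from 3 days before it, ergothioneine (EGT), a sulfur-containing antioxidant taken up from food, at 0.5 mg/mL in drinking water, and are called EGT mice here. Kidneys were taken after 8 weeks. Each library held 18207 to 28997 barcodes and 70106161 to 101525691 UMIs, and 196925 of 216680 barcodes were kept. Cell types were rebuilt from clusters made without the 7 genes and named from marker lists that do not contain them, and each name stands for cells like that type. The macrophages (836 cells, 29 to 141 per mouse) were mostly led by Ccl12, Ccl3 and C1q genes, and the dendritic cells (285, 22 to 53 per mouse) by Cd209a, Clec10a and Xcr1. Together with 675 B cells, 810 T cells, 266 monocytes, 81 NK cells and 67 neutrophils they made the 3020 immune cells, 1.53% of the kept cells. Tubular cells were 88.7%, 150215 of them proximal tubule (PT) cells. A further 1341 cells from leukocyte clusters met no type's rule. Most were in clusters led by tubular genes such as Kap and Ttr. They held 17.2% of their number among the 6% highest doublet scores and were kept apart. The library of EGT mouse 3 differed from the others in cell makeup, with 9800 PT and 3038 distal convoluted tubule (DCT) cells.

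Macrophages and dendritic cells had the highest mean levels of all 7 genes, although for Ciita their mice overlapped those of B cells and monocytes. Levels are a gene's share of the UMIs of a cell type in a mouse, scaled to 1e6 UMIs (CPM), given as mean ± SD over 9 mice, and are a description with no test. Each captured transcript counts once whatever its length, although capture can differ between genes. Cd74 reached 27219 ± 5403 CPM in macrophages and 21065 ± 4167 in dendritic cells, ranges of 21012 to 35711 and 16223 to 30062 that overlapped. B cells followed at 6077 ± 1375 and monocytes at 4593 ± 1871, which again overlapped each other and lay below every value of the first pair. H2-Ab1 was at 12011 ± 3268 CPM in macrophages and 11850 ± 1429 in dendritic cells (8784 to 13787), and at 2186 ± 1152 and 1887 ± 607 in monocytes and B cells. H2-Aa had the same order, with 10674 ± 3363 CPM in macrophages, 9794 ± 1607 in dendritic cells and 1859 ± 630.1 in B cells. H2-Eb1, whose product needs the I-E α chain to form a dimer, was as abundant, at 11393 ± 2743 and 9519.9 ± 1682 CPM in macrophages and dendritic cells.

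The chaperone and the coactivator were far less abundant than the chains. H2-DMa was at 579 ± 157 CPM in macrophages and 770.4 ± 93.1 in dendritic cells, H2-DMb1 at 549.7 ± 147 and 662 ± 83.3. Ciita was at 80.8 ± 40.02 CPM in macrophages (35.5 to 155), 134 ± 57.02 in dendritic cells (58.0 to 264) and 47.1 ± 41.1 in B cells (10.1 to 145), ranges that overlapped. For these 3 genes the mean was higher in dendritic cells than in macrophages, the other way round from the chains, although the ranges overlapped in each case. H2-DMb1 shares near-identical sequence with its neighbour H2-DMb2, and reads that fit both may have been assigned to either or dropped, so its level is uncertain. In B cells H2-DMb1 stood at 70.0 ± 17.2 CPM against 315 ± 86.5 for H2-DMb2, while in macrophages H2-DMb2 stood at 11.7 ± 6.63. The ratio of H2-DMb1 to H2-DMa was 0.955 in macrophages, 0.873 in dendritic cells and 0.350 in B cells.

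**Figure D1:**
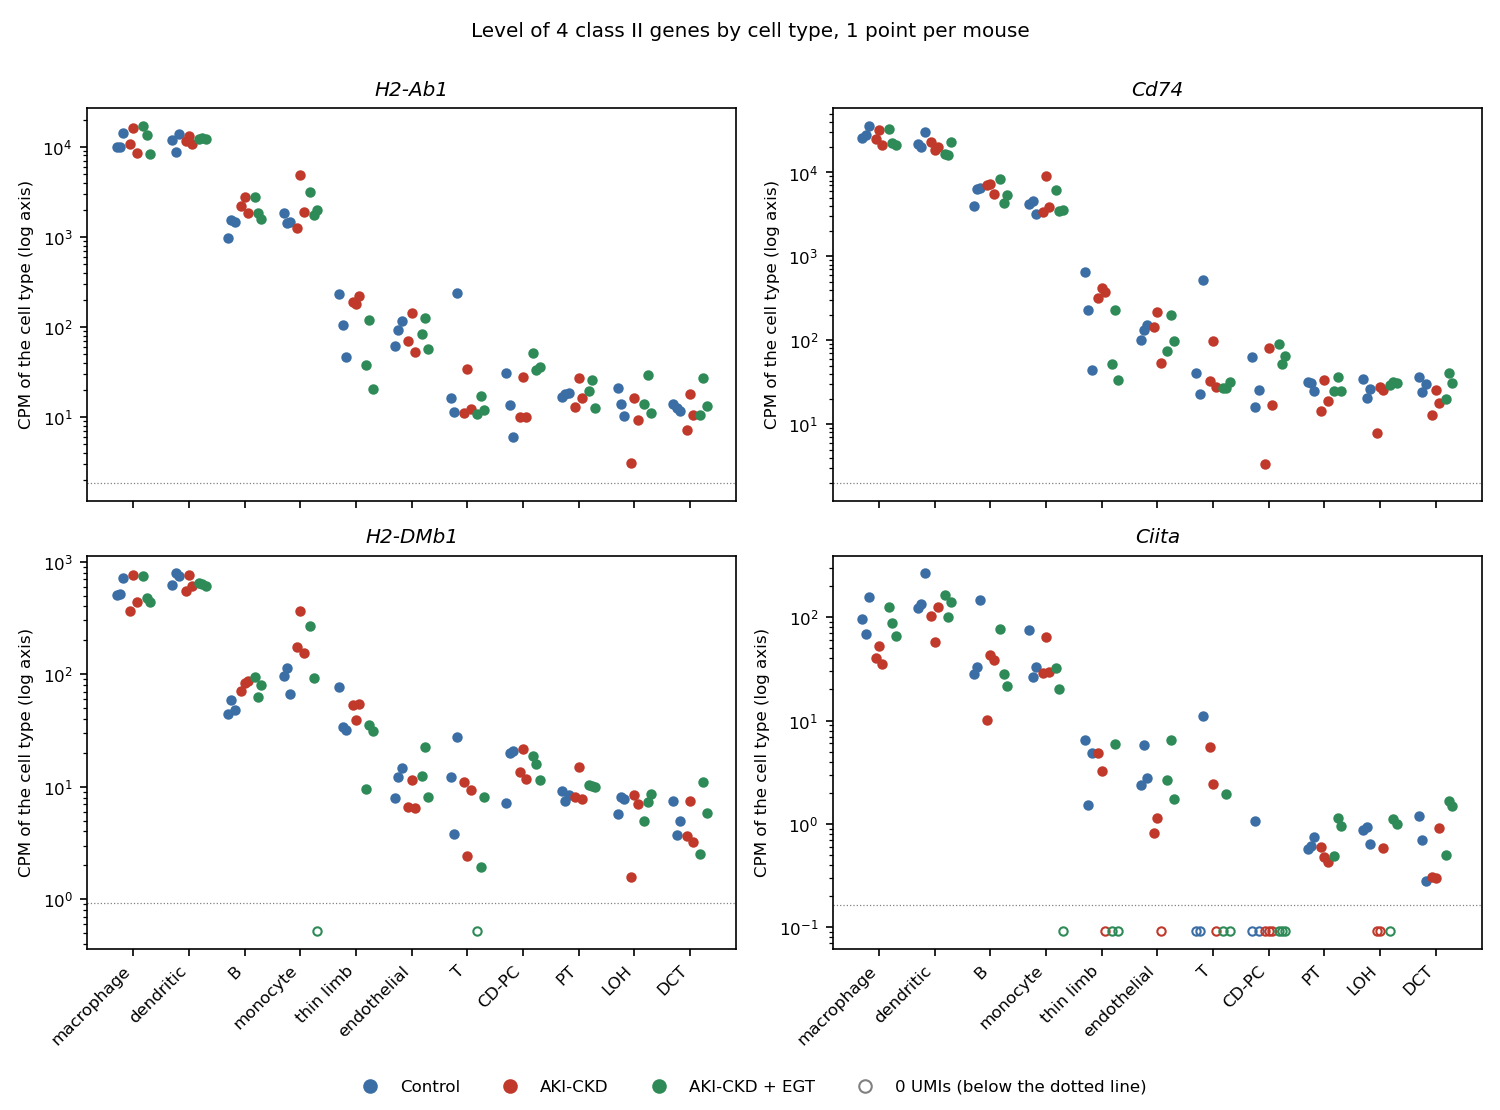
Levels of H2-Ab1, Cd74, H2-DMb1 and Ciita in CPM on a log axis by cell type. Each point is 1 of 9 mice and open circles mark 0 UMIs; macrophages and dendritic cells lie highest for H2-Ab1, Cd74 and H2-DMb1, while for Ciita their points overlap those of B cells and monocytes.

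Per cell, the 7 genes together made a median of 6.87% of all UMIs in macrophages, 5.42% in dendritic cells, 1.45% in B cells and 0.187% in monocytes. Monocytes were mixed, since 19.5% of them had no UMI of any member and the upper 10% had at least 3.85%. In T cells, which in mice do not make class II, 78.6% of cells had none, and in PT cells 82.0%. After thinning each cell to 1000 UMIs, Cd74 was seen in 99.5% of macrophages, 98.5% of dendritic cells and 96.2% of B cells. It was seen in 3.95% of T cells and in 2.37% of PT cells, at median depths of 2310 and 2911 UMIs before thinning. The PT share thus lay below that of T cells, a type that should lack the gene. In T cells the summed level of the 7 genes varied between mice from 68.1 to 1392 CPM. Whether the PT share reflects expression was not tested. Ciita was seen in 8.11% of macrophages and 9.98% of dendritic cells, so that at this depth most cells rich in class II message showed none of it. No cell fell below 1000 UMIs.

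Levels also differed among the subsets of a type. The 632 macrophages led by Ccl12, Ccl3 and C1qc had 31253 ± 5707 CPM of Cd74, the 137 led by Ms4a7, C1qb and C1qa 22241 ± 8167, and the 67 led by Creb5, Itga9 and Tnip3 13911 ± 6234. The name of this last subset rests on 9 macrophage markers, none of them among its leading genes. Among dendritic cells, the 217 led by Cd209a and Clec10a, genes of conventional type 2 cells, had 22746 ± 4549 CPM, and the 68 led by Xcr1, a gene of cross-presenting type 1 cells, 16777 ± 4889. The lowest macrophage subset thus stood below both dendritic subsets by its mean.

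Most class II message lay in a very small share of the cells. Of 355302 UMIs of the 7 genes, 66.5% were in the immune cells that made 1.53% of the kept cells, 37.3% in macrophages alone. A further 16.4% lay in the unnamed leukocytes and 15.1% in tubular cells. The members split into 2 patterns by location. For H2-Aa, H2-Eb1 and Cd74 the immune share was 70.8%, 69.8% and 68.7%, and the tubular share 10.1%, 10.5% and 12.6%. H2-Ab1 lay between, with 64.9% immune and 16.9% tubular. For H2-DMa the tubular share was 51.4%, for H2-DMb1 64.1% and for Ciita 41.8%, against immune shares of 36.7%, 24.8% and 44.1%.

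**Figure D2:**
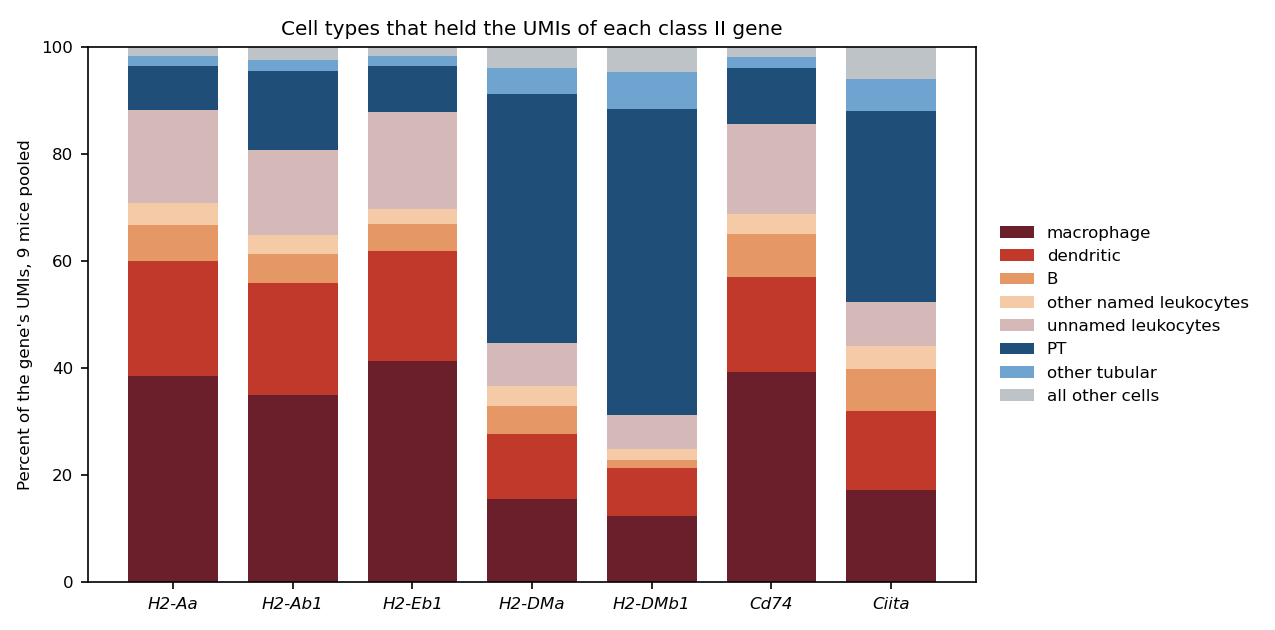
Stacked bars of the percent of each member's UMIs, pooled over 9 mice, that lay in each cell population. The tubular part grows from 10.1% in H2-Aa to 64.1% in H2-DMb1.

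Free RNA from broken cells gives every droplet a low, shared set of counts, so the level in PT cells was set against 14 leukocyte genes that tubular cells should lack. Each gene's PT level was divided by its level in the immune cells, the unnamed leukocytes left out, called the leukocyte level here. The 14 genes, among them C1qa, Ptprc, Cd79a and Cd3e, stood at 0.0779% to 0.200%, with a median of 0.123%. H2-Aa (0.190%) and H2-Eb1 (0.198%) lay within that range, at its upper end. Cd74 (0.246%, 0.139% to 0.486% over mice) and H2-Ab1 (0.368%, 0.264% to 0.563%) lay above it by their pooled values. Over mice both overlapped leukocyte genes, since Laptm5 reached 0.525% and Fcer1g 0.331% in a mouse. Ciita stood at 1.31% (0.639% to 3.04%), H2-DMa at 2.04% (1.12% to 2.95%) and H2-DMb1 at 3.72% (2.42% to 5.42%). In every mouse these 3 lay above the highest value of any of the 14 genes.

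**Figure D3:**
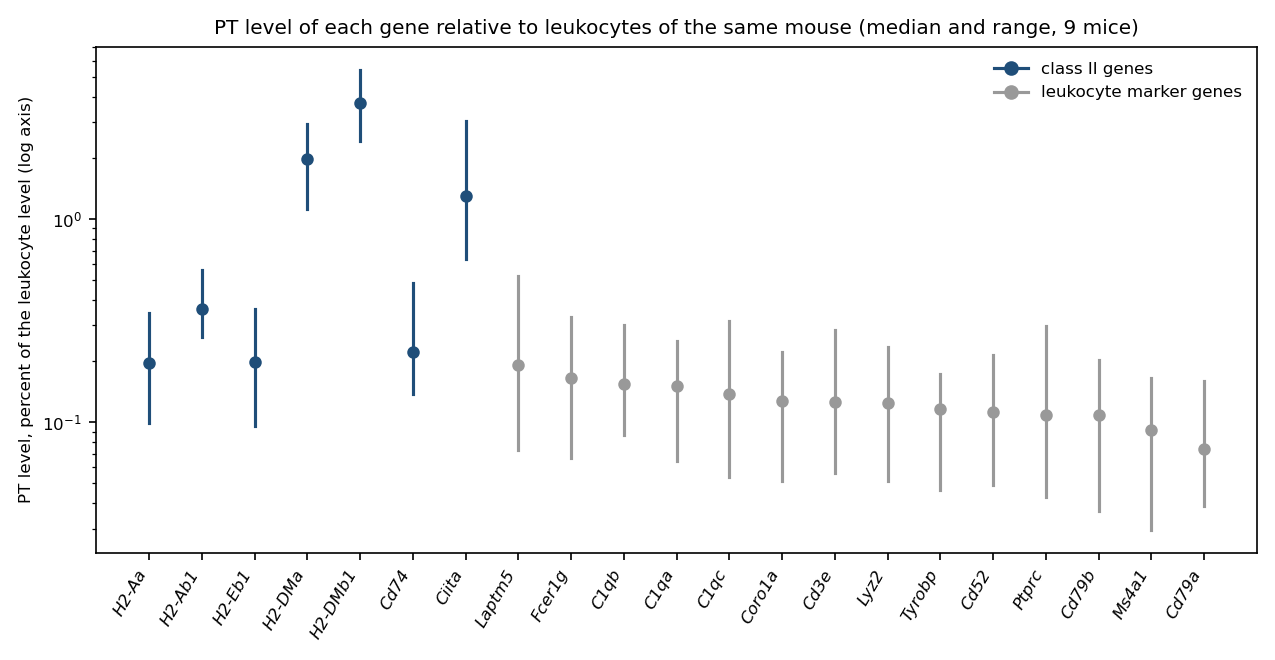
PT level as a percent of the leukocyte level on a log axis, for the 7 class II genes and the 14 leukocyte genes. Points are medians and lines the range over 9 mice; H2-DMb1, H2-DMa and Ciita lie above all 14 leukocyte genes.

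Ratios between members were set side by side as well. H2-Ab1 to H2-Aa was 1.15 in macrophages (up to 1.31 over mice), 1.23 in dendritic cells (up to 1.53) and at most 1.14 in a mouse's B cells, and 2.25 in PT cells (1.68 to 3.29), with no overlap between PT and these 3 types. Monocytes, at 1.15 with a range of 0.786 to 2.0, overlapped PT cells, and LOH (loop of Henle) cells at 1.23 (0.571 to 2.4) and DCT cells at 1.46 (0.977 to 5.75) lay nearer to the leukocytes by their pooled ratio. H2-DMb1 to H2-Aa was 0.0532 in macrophages (0.0377 to 0.0679) and 1.13 in PT cells (0.768 to 2.06). It was 0.592 in LOH and 0.589 in DCT cells. H2-Eb1 to H2-Aa was 1.07 in macrophages and 1.03 in PT cells. Leaving out every PT cell with a UMI of any of the 14 leukocyte genes kept 143900 cells, 95.8%. These genes pooled to only 12.6 CPM, so most droplets that hold free RNA show no UMI of them. The filter therefore cannot remove free RNA, here or where it is used below. The summed level of the 7 genes was then 74.0 CPM against 77.8 in all PT cells, Cd74 24.6 against 26.3, and H2-DMb1 9.28 against 9.32.

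Among tubular cells, those of the thin limb stood out. Cd74 was at 263 ± 207 CPM there, against 26.8 ± 7.24 in PT cells, 26.2 ± 8.00 in LOH cells and 26.6 ± 8.96 in DCT cells. H2-DMb1 was at 40.7 ± 19.0 CPM against 9.60 ± 2.26 in PT cells. As a pooled percent of the leukocyte level, thin limb cells had 15.9% for H2-DMb1, 6.24% for Ciita, 6.02% for H2-DMa, 2.46% for H2-Ab1, 2.36% for Cd74, 1.28% for H2-Eb1 and 1.05% for H2-Aa, and the 14 leukocyte genes 0% to 0.918%. Over mice the ranges overlapped. Cd74 fell to 0.259% and H2-Aa to 0.136% in a mouse, while Lyz2 reached 5.46% and C1qc 4.34%. The mice differed widely. Cd74 was at 657, 232 and 43.9 CPM in Control mice 1 to 3, at 316, 419 and 378 in AKI-CKD mice and at 52.5, 231 and 33.9 in EGT mice. The groups of Control and AKI-CKD mice overlapped, and the EGT values lay below those of AKI-CKD. Such separation, on unscaled CPM, was seen for 6.89% of the 6289 thin limb genes that passed a limit on low counts, and for 4 of 5 members that passed it (Cd74, H2-Ab1, H2-Eb1 and H2-DMb1). Each value rests on 52 to 179 cells, and no test was set for this cell type. Endothelial cells had 131 ± 55.1 CPM of Cd74. Without cells that held a leukocyte UMI, the pooled sum of the 7 genes was 197 CPM against 352 in endothelial cells and 441 against 537 in thin limb cells.

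A small cluster of PT cells had much higher levels. Its 153 cells, 9 to 30 in each of the 9 mice, were led by Gbp6, Iigp1, Igtp, Gbp2, Ubd and Cxcl10, genes induced by interferon. Its pooled level was 626 CPM for Cd74 against 25.6 in the other PT cells, 502 against 17.9 for H2-Ab1 and 158 against 8.05 for H2-Aa. H2-DMa was at 53.6 against 6.27, H2-DMb1 at 44.9 against 9.28 and Ciita at 33.3 against 0.614. The 14 leukocyte genes summed to 17.4 CPM in the cluster and 12.6 in the other PT cells. A Cd74 UMI was seen in 63 of 153 cells, 41.2% (exact 95% interval 33.3% to 49.4%, counting error only), against 6.51% of the other PT cells. A Ciita UMI was seen in 15 cells, 9.80% (5.59% to 15.7%), against 0.203%. The ratio of H2-Ab1 to H2-Aa was 3.17 in the cluster. It held 0.569% to 4.4% of a mouse's PT member UMIs. It was defined by clustering, and these values are a description. Its name rests on 3 PT markers, none of them among its leading genes. Without Harmony a like cluster of 168 cells was again named PT. With all variable genes, 310 cells led by Iigp1, Gbp6 and Ubd fell among the leukocyte clusters and met no type's rule.

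PT cells with a UMI of the injury markers Havcr1 (KIM-1) or Vcam1 carried more class II message than other PT cells of the same mouse. There were 245 such cells, 0.163% of PT cells. Whether such a UMI reflects injury by cisplatin was not tested, and these cells were not confined to the treated groups. The saline-treated Control mice 1 to 3 held 33, 28 and 26 of them. The AKI-CKD group held 28, 22 and 52, and the EGT group 13, 26 and 17. These marked cells were found among 9800 to 21460 PT cells per mouse. The summed level of the 7 genes in them was 245, 869 and 282 CPM in Control mice 1 to 3, against 83.7, 79.4 and 71.6 in the other PT cells. In AKI-CKD mice it was 207, 264 and 346 against 49.3, 107 and 60.2. In EGT mice it was 61.5, 214 and 94.1 against 82.0, 108 and 69.5. The level was higher in 8 of 9 mice, the exception being EGT mouse 1. The mean log2 ratio was 1.54 (SD 1.15, n = 9, exact two-sided sign-flip permutation test, p = 0.00781, where the smallest possible p is 0.00391). Tested alone, Cd74 had a mean log2 ratio of 1.81 (SD 1.17, higher in 9 of 9 mice, exact p = 0.00391, adjusted over both genes 0.00781) and H2-Ab1 of 1.84 (SD 1.31, 8 of 9 mice, exact p = 0.0117, adjusted 0.0117). The other 5 members were at 0 UMIs in 1 to 6 mice and gave no ratio. A member was thus tested alone only if its level in the marked cells allowed it, and the 2 tests do not speak for the others. H2-Aa and H2-Eb1 were higher in 7 mice each, H2-DMa and H2-DMb1 in 6 each and Ciita in 3. The pooled levels of these 5 were 29.5 against 8.18 CPM for H2-Aa, 24.4 against 8.44 for H2-Eb1, 9.60 against 6.32 for H2-DMa, 15.5 against 9.30 for H2-DMb1 and 3.69 against 0.645 for Ciita, which rests on 5 UMIs.

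**Figure D4:**
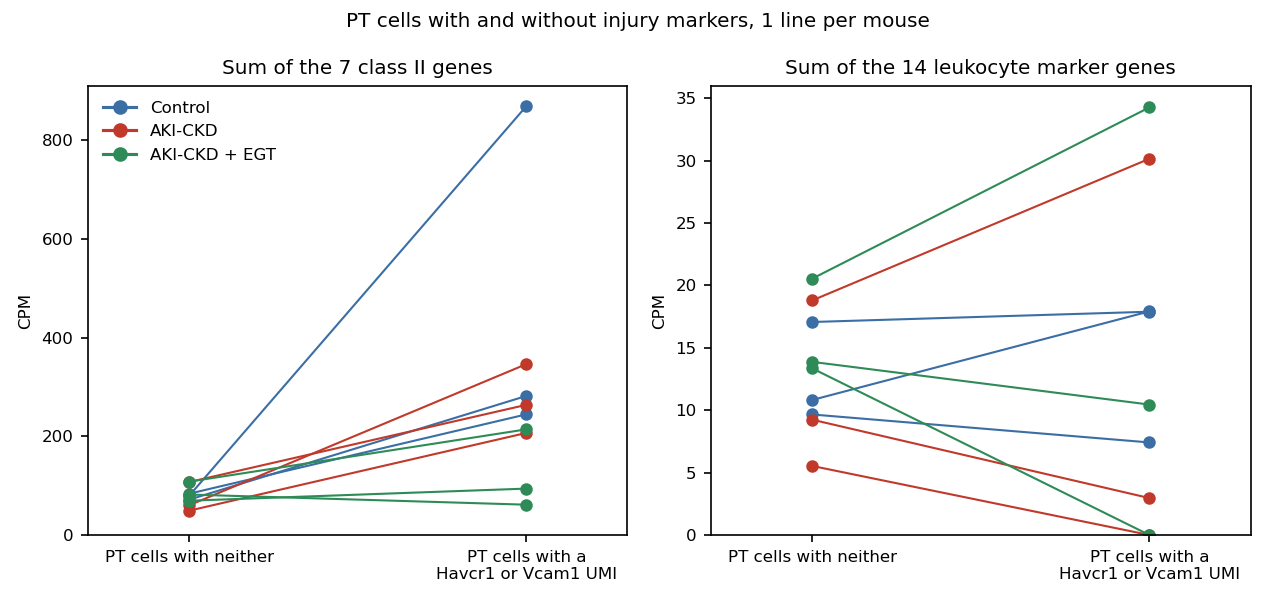
Summed CPM of the 7 members (left) and of the 14 leukocyte genes (right) in PT cells with and without a Havcr1 or Vcam1 UMI, with 1 line per mouse coloured by group. The member sum is higher in the marked cells of 8 of 9 mice, and the leukocyte genes pool to 11.8 against 12.6 CPM.

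Other measures moved with these marked cells. Their median depth was 4457 UMIs against 2909, and 11.8% of them against 5.29% of the other PT cells were among the 6% highest doublet scores. The part of depth and doublets in the difference was not tested. Without the highest doublet scores, 216 marked cells had a pooled 277 CPM against 76.7, but 1 mouse had no member UMI and the ratio test could not be run. The leukocyte genes summed to 11.8 CPM in the marked cells and 12.6 in the others, and without cells holding a leukocyte UMI the mean log2 ratio was 1.57. Only 4 of the 245 cells were in the interferon cluster, and without that cluster the ratio was 1.49. Cells with a Vcam1 UMI (90) had 447 CPM and those with a Havcr1 UMI (157) 215 CPM. Compared between groups, which was added after seeing these values, the mean log2 ratio was 2.33 (SD 1.00) in Control mice, 1.963 (SD 0.62) in AKI-CKD mice and 0.33 (SD 0.71) in EGT mice. The difference of -1.63 had an exact permutation p of 0.1, the smallest that 3 against 3 mice can give. The EGT ratios rest on only 13, 26 and 17 marked cells, and the part of counting error in this difference was not tested. Against Control mice, AKI-CKD mice differed by -0.36 (exact p = 0.7).

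Cisplatin and EGT were then compared within each cell type, with counts summed per mouse and edgeR's quasi-likelihood test. AKI-CKD was compared with Control and AKI-CKD + EGT with AKI-CKD, and the comparisons share the AKI-CKD mice. Over 9 populations and both comparisons, 0 of 120 tests of a member passed an adjusted p of 0.05. An unadjusted p under 0.05 was reached in 12 of them, and DESeq2 also called 0, with 10 under 0.05. With edgeR that is 10% of the member tests, against 11.4% of the 191596 tests of all genes in the same populations and comparisons, so the members' pooled share lay near the background. The populations overlap, since PT cells are also tubular cells, so these tests are not independent. The share of all genes ran from 5.8% in macrophages for AKI-CKD against Control to 16.5% in tubular cells with EGT. The lowest adjusted p with edgeR was 0.333. Few genes of any kind were called.

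In macrophages the chains, the invariant chain and the DM genes did not pass the test, and Ciita had the lowest p. Of the 3104 genes tested, 0% were called in either comparison, by edgeR as for the 7 members, of which 1 had an unadjusted p under 0.05 in each comparison (DESeq2 1 and 0). With edgeR 5.8% and 6.38% of all genes had one. H2-Ab1, scaled by TMM, was at 9841, 10163 and 14415.5 CPM in Control mice 1 to 3, at 10451, 17237 and 8020.2 in AKI-CKD mice and at 16814, 13393 and 8278 in EGT mice. The 3 groups overlapped fully. The log2 differences of H2-Aa, H2-Ab1, H2-Eb1 and Cd74 between AKI-CKD and Control were 0.0089, 0.054, -0.033 and -0.20, and the 95% interval for H2-Aa was -0.67 to 0.69. Between AKI-CKD + EGT and AKI-CKD they were 0.13, 0.11, 0.090 and -0.039. H2-DMa differed by -0.29 and 0.28, and H2-DMb1 by -0.13 and 0.040. Intervals given are normal approximations.

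Ciita in macrophages was at 97.1, 69.7 and 157 CPM in Control mice, at 39.4, 56.3 and 33.3 in AKI-CKD mice and at 126, 86.8 and 64.7 in EGT mice. Every AKI-CKD mouse thus lay below every mouse of both other groups. Such separation was seen for 6.06% of the genes tested as lower in AKI-CKD than in Control, and for 7.22% as higher in EGT mice than in AKI-CKD mice. The log2 differences were -1.27 (SE 0.43, 95% interval -2.11 to -0.43, unadjusted p = 0.00813, adjusted p = 0.717) and 1.03 (SE 0.43, 0.19 to 1.88, unadjusted p = 0.0277, adjusted p = 0.721), with edgeR. Over 20 settings they ranged from -1.59 to -0.96 and from 0.76 to 1.35. The AKI-CKD values rest on 3, 11 and 6 UMIs. The highest unadjusted p over these settings was 0.0469 for AKI-CKD against Control and 0.126 with EGT, the latter without AKI-CKD mouse 3.

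In dendritic cells Ciita also had a lower estimate in AKI-CKD than in Control. Ciita was at 129.6, 132 and 277 CPM in Control mice, at 101, 56.9 and 120 in AKI-CKD mice and at 156, 102 and 142 in EGT mice. The AKI-CKD mice lay below all Control mice but overlapped the EGT mice. With edgeR the log2 difference was -0.95 (SE 0.39, unadjusted p = 0.0287, adjusted p = 0.581) against Control, where 6.39% of genes were separated in this direction, and 0.51 (unadjusted p = 0.205) with EGT. Over 19 settings the difference against Control ran from -1.27 to -0.49, the latter without Control mouse 3 (unadjusted p = 0.268). The other 6 members differed by -0.31 to -0.047 and by -0.12 to 0.089. Of the 7 members 0 were called, as were 0% of 1690 genes in both comparisons, and 1 and 0 members had an unadjusted p under 0.05 with edgeR (DESeq2 0 and 0). With edgeR 7.75% and 6.04% of all genes had one.

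In B cells all 6 members tested had a higher estimate in AKI-CKD than in Control, and Ciita was below the filter on low counts. In the 10 other settings that fitted Ciita its estimate was lower in AKI-CKD, by -1.26 to -0.60. H2-Ab1 was at 919 CPM in Control mouse 1, 1592 in mouse 2 and 1406 in mouse 3, at 2295, 2827 and 1833 in AKI-CKD mice and at 2698, 1790.3 and 1668 in EGT mice. All AKI-CKD values lay above all Control values, as they did for H2-DMb1 (42.5, 62.0 and 46.3 against 73.7, 83.8 and 87.8 CPM). Separation in this direction was seen for 5.85% of genes. With edgeR the log2 difference was 0.83 for H2-Ab1 (SE 0.27, 95% interval 0.31 to 1.36, unadjusted p = 0.00662, adjusted p = 0.50), 0.73 for H2-Aa (SE 0.30, adjusted p = 0.673) and 0.73 for H2-DMb1 (SE 0.37, adjusted p = 0.709). H2-Eb1, Cd74 and H2-DMa differed by 0.53, 0.28 and 0.27. Over 19 settings the differences ran from 0.63 to 1.06 for H2-Ab1, 0.47 to 1.04 for H2-Aa, 0.60 to 0.89 for H2-DMb1, 0.25 to 0.98 for H2-Eb1 and 0.076 to 0.50 for Cd74, each lowest without Control mouse 1. That of H2-DMa ran from -0.046 to 0.52 and so changed sign. The median over the 6 was 0.63, against 0.0081 over all genes tested. None was called, by edgeR or by DESeq2, against 0% of 2719 genes, and 2 had an unadjusted p under 0.05 with each tool. With edgeR 6.88% of all genes had one. With EGT, the 6 members differed from AKI-CKD by -0.18 to -0.014, and 0 were called, against 0% of genes, with 0 under an unadjusted 0.05 by either tool. The B cells were split by clustering into 441 led by Igkc, Cd79a, Iglc2 and Iglc1, with 3033 ± 883 CPM of H2-Ab1, and 234 led by Igkc, Cd79a, Iglc2 and Ebf1, with 1025 ± 393. In the larger subset H2-Ab1 was at 1886, 2397 and 2763 CPM in Control mice and at 3164, 4454 and 3281 in AKI-CKD mice. In the smaller one it was at 579, 621 and 607 against 1345, 1334 and 1166 CPM. Within both subsets every AKI-CKD mouse thus lay above every Control mouse, on 12 to 89 cells a mouse and with no test. The same separation was seen for 7.37% of 1113 genes in the larger subset and for 8.3% of 1627 genes in the smaller one. Of the 5 members that passed the limit on low counts in each, H2-Aa was also apart in the larger subset. In the smaller one H2-Ab1 alone was apart. The median depth was 1619 UMIs in the larger and 3915 in the smaller subset.

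**Figure D5:**
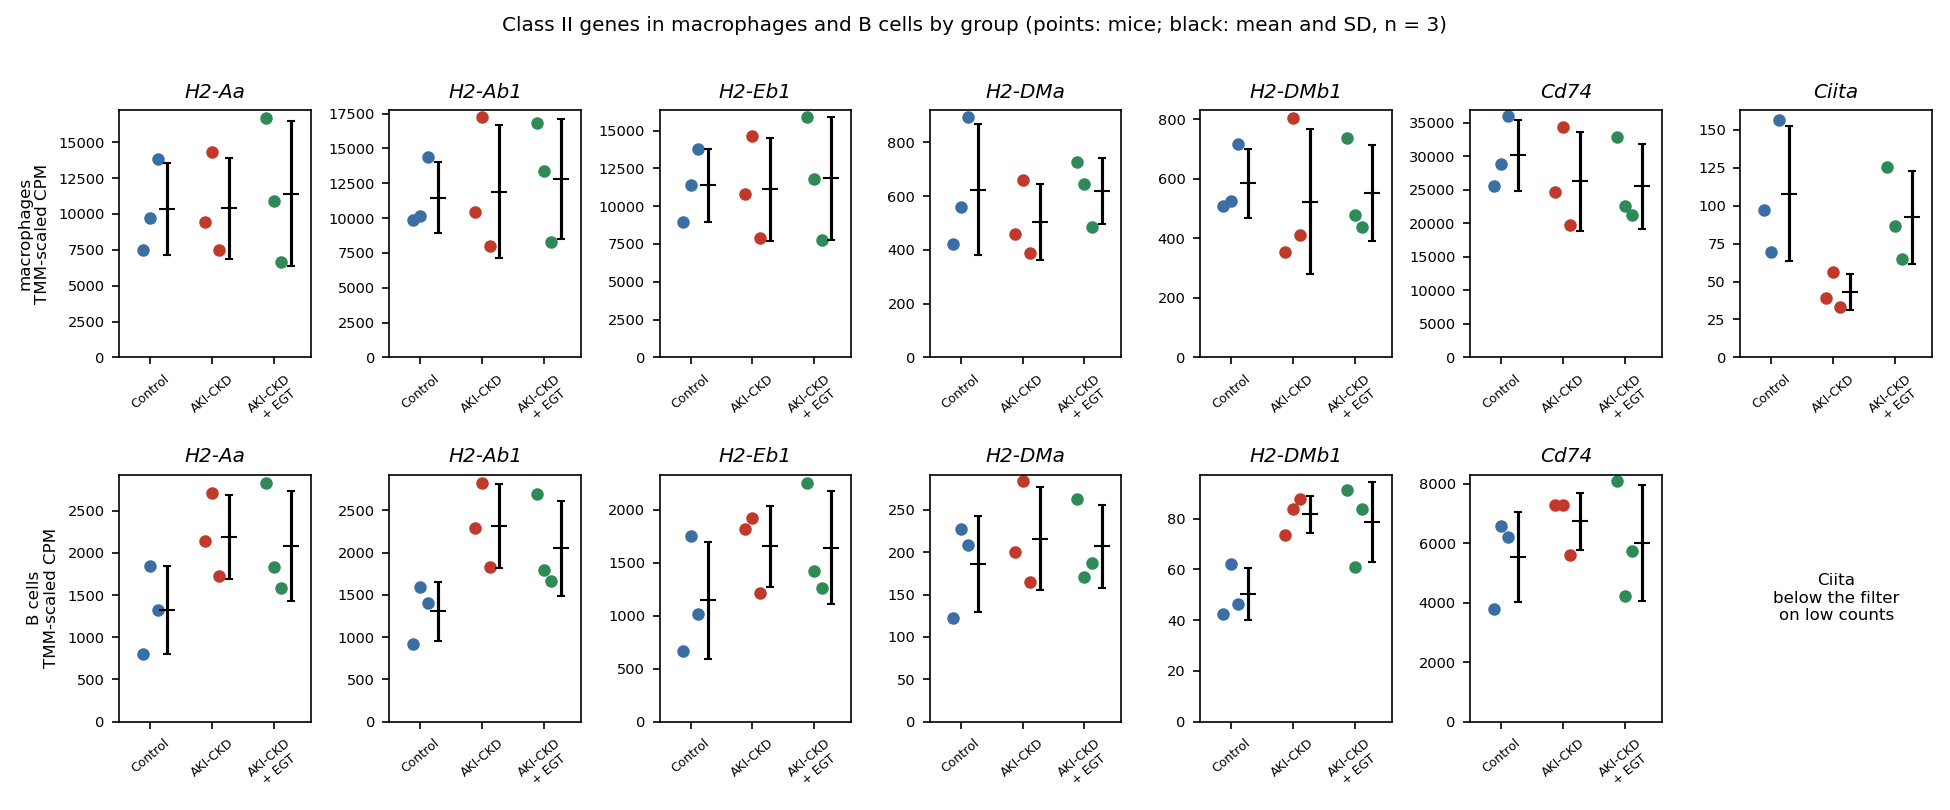
TMM-scaled CPM of members by group in macrophages and B cells. Points are mice and bars the mean and SD of 3; Ciita in the macrophages of AKI-CKD mice lies at 33.3 to 56.3, below the other groups, and H2-Ab1 in their B cells lies at 1833 to 2827, above Control.

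Summed over all immune cells, 0 of 7 members were called in either comparison, against 0.0221% and 0% of 9035 genes. Ciita differed by -0.79 between AKI-CKD and Control (edgeR, unadjusted p = 0.0423, adjusted p = 0.441), the only member with an unadjusted p under 0.05 there, as with DESeq2, and none had one with EGT by either tool. Over 20 settings this difference ran from -1.08 to -0.25, the latter without Control mouse 3 (unadjusted p = 0.427). Of all genes in immune cells, 10.9% had an unadjusted p under 0.05 against Control with edgeR. In all kept cells 0 of 7 were called, against 0.0199% and 0.00496% of 20144 genes, with 0 and 1 under an unadjusted 0.05 (DESeq2 1 and 1). With edgeR 8.02% and 12.7% of all genes were under it. There Ciita was lower in every AKI-CKD mouse than in every Control mouse, as were 7.08% of genes, and higher in every EGT mouse than in every AKI-CKD mouse, as were 8.54% of genes, with a log2 difference of 0.69 (SE 0.24, unadjusted p = 0.0154, adjusted p = 0.333, edgeR). In sums over many cell types, more cells of a type and more RNA per cell cannot be told apart.

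The number of these cells differed between libraries as well. Macrophages made 0.613%, 0.360% and 0.436% of kept cells in Control mice, 0.125%, 0.461% and 0.215% in the AKI-CKD group and 0.518%, 0.584% and 0.609% in EGT mice. The EGT mice all lay above the AKI-CKD mice, by a mean of 0.303 percentage points (exact permutation p = 0.1, the smallest possible). As a share of cells not of PT the means were 1.90% and 1.33%, a difference of 0.579 points (exact p = 0.2), so the mice then overlapped. Of all kept cells, AKI-CKD lay 0.203 points below Control (exact p = 0.3). Dendritic cells made 0.0957%, 0.0983% and 0.0978% in Control mice, 0.125%, 0.218% and 0.167% in the AKI-CKD group and 0.134%, 0.244% and 0.151% in EGT mice. AKI-CKD lay above Control in each mouse (exact p = 0.1), and EGT mice differed from AKI-CKD mice by 0.0059 points (exact p = 0.9). As a share of cells not of PT, dendritic cells were at 0.598% with EGT and 0.897% without, a difference of -0.299 points (exact p = 0.2), so that the sign depends on the denominator. For B cells the exact p was 0.9 and 0.3, and for T cells 0.3 and 0.7. As a share of cells not of PT, T cells were at 2.36% in AKI-CKD and 1.21% in Control mice, a difference of 1.15 points with the groups apart (exact p = 0.1). The tubular share of the members' UMIs was 14.8%, 20.5% and 15.1%, then 21.1%, 13.1% and 16.8%, then 12.8%, 14.5% and 11.6% in the 3 groups, with exact p of 1.0 and 0.2.

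In tubular cells as a whole 0 of 7 members were called, against 0.0373% of 18752 genes for AKI-CKD against Control and 0% with EGT, and none had an unadjusted p under 0.05 by edgeR or DESeq2. Ciita was lower in every AKI-CKD than in every Control mouse, as were 9.42% of genes. In PT cells the count was also 0 of 7, against 0.0446% and 0% of 17946 genes, with none under an unadjusted 0.05 by either tool. H2-DMb1 in PT cells was at 8.52, 8.00 and 8.64 CPM in Control mice, 8.46, 15.9 and 8.77 in the AKI-CKD group and 10.3, 9.67 and 8.27 in EGT mice. Its log2 difference of 0.39 (SE 0.22, adjusted p = 0.486) rests on AKI-CKD mouse 2, the only AKI-CKD value clearly above Control, and without that mouse it was 0.045. Cd74 differed by -0.31 and Ciita by -0.29 in the same comparison, and Ciita by 0.56 with EGT (adjusted p = 0.441). Over 21 settings these ran from -0.72 (without AKI-CKD mouse 2) to -0.052 (without AKI-CKD mouse 1) for Cd74, from -0.41 to -0.14 (without Control mouse 3) for Ciita and from 0.24 (without EGT mouse 2) to 0.81 for Ciita with EGT.

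In DCT and LOH cells most estimates ran in 1 direction, and some changed sign with the setting. For AKI-CKD against Control the sign changed in 17 of 120 estimates under other settings in DCT cells (H2-Ab1, H2-Eb1 and H2-DMb1) and in 6 of 115 in LOH cells (Cd74, H2-Aa, H2-Eb1 and H2-DMb1). With EGT it changed in 2 of 120 in DCT cells, for H2-Ab1 and H2-DMb1 without EGT mouse 2 (-0.12 and -0.27), and in 5 of 114 in LOH cells (H2-DMa and H2-DMb1). In DCT cells all 6 members tested were lower in AKI-CKD than in Control by their estimate and all 6 higher with EGT than without. H2-DMa was at 4.21, 6.18 and 4.36 CPM in Control mice, at 2.77, 2.19 and 1.45 in AKI-CKD mice and at 2.16, 5.02 and 4.74 in EGT mice. AKI-CKD lay below Control in every mouse, as for 7.71% of genes, with a log2 difference of -1.15 (SE 0.43, unadjusted p = 0.0192, adjusted p = 0.446, edgeR). Cd74 differed by -0.66 (SE 0.29, adjusted p = 0.494), and H2-Aa by 1.02 with EGT (SE 0.45, adjusted p = 0.345), a value that ran from 0.48 to 1.97 over 20 settings, highest without AKI-CKD mouse 2. None was called, against 0% of 11884 genes in both comparisons, and 2 and 1 members had an unadjusted p under 0.05 with edgeR and with DESeq2. With edgeR 9.88% and 13.4% of all genes had one. In LOH cells 6 of 6 were lower in AKI-CKD, by -0.67 to -0.22, and 5 of 6 higher with EGT, H2-Eb1 by 0.99 (SE 0.42, adjusted p = 0.374) and H2-Aa by 0.88 (SE 0.39, adjusted p = 0.396). Over 20 settings these ran from 0.16 to 1.66 for H2-Eb1 and from 0.39 to 1.36 for H2-Aa, both highest without AKI-CKD mouse 2. None was called, against 0% and 0.038% of 10524 genes, and 0 and 2 had an unadjusted p under 0.05 (DESeq2 0 and 1). With edgeR 8.15% and 11.8% of all genes had one.

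Leukocyte RNA varied beside these estimates. In DCT cells the 14 leukocyte genes summed to 27.5, 18.9 and 22.2 CPM in Control mice, to 11.9, 28.5 and 15.6 in AKI-CKD mice and to 21.1, 43.7 and 25.7 in EGT mice. In LOH cells they summed to 17.9, 30.7 and 29.7, to 10.2, 22.7 and 13.6 and to 26.6, 31.4 and 23.6 CPM. AKI-CKD mouse 2 was the highest of its group in both, and it was also highest for the members in PT cells, with a sum of 108 CPM against 49.7 and 61.4. Without tubular cells that held a leukocyte UMI, the log2 differences of H2-Aa and H2-Eb1 in tubular cells went from -0.018 and -0.089 to 0.041 and 0.030 for AKI-CKD against Control, and from 0.39 and 0.31 to 0.27 and 0.20 with EGT. In LOH cells the same setting took H2-Eb1 from 0.99 to 0.16 and H2-Aa from 0.88 to 0.49 with EGT. For AKI-CKD against Control it took them from -0.67 to -0.15 and from -0.38 to 0.095, and H2-DMa fell below the filter on low counts. In DCT cells it took H2-Aa from 1.02 to 0.72 and Cd74 from 0.58 to 0.51 with EGT, and all 6 estimates stayed above 0. For AKI-CKD against Control, H2-DMa in DCT cells went from -1.15 to -1.22 and Cd74 from -0.66 to -0.53, while H2-Ab1 and H2-Eb1 went from -0.062 and -0.11 to 0.26 and 0.27. None of the members was called in this setting either.

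The rest of the pathway was read from 6 lists chosen by function. Over the 9 populations and both comparisons 0 of 536 gene tests passed with edgeR, 72 had an unadjusted p under 0.05, 13.4% against the 11.4% of all genes, and the lowest adjusted p was 0.191. Among other class II chains, H2-Ea, the I-E α chain gene, had 1 UMI in all kept cells, in a macrophage. C57BL/6 mice carry the H-2b haplotype, which does not express this gene, so that H2-Eb1 message has no partner chain. H2-Oa and H2-Ob, which form a modulator of DM, were highest in dendritic cells (283 ± 50.1 CPM for H2-Oa) and B cells (223 ± 75.7 CPM for H2-Ob). H2-Eb2 was at 21.9 ± 6.88 CPM in B cells. In immune cells 3 of 3 tested chains of this list had estimates above 0 for AKI-CKD against Control, with a median of 0.74. All 3 had an unadjusted p under 0.05 with edgeR, against 10.9% of all genes, and 0 were called. In all kept cells 4 of 4 were above 0, in B cells 3 of 3 and in dendritic cells 1 of 3. With EGT, 3 of 3 in immune cells were below 0. The makeup of the immune cells differed as well. Macrophages were 141, 99 and 107 of the 353, 325 and 245 immune cells in Control mice. In AKI-CKD mice they were 29, 89 and 50 of 176, 467 and 276. In this sum, makeup and RNA per cell cannot be told apart. Ctss, the protease that trims the invariant chain, was at 1801 ± 444 CPM in macrophages, 893 ± 174 in dendritic cells and 0.963 ± 0.354 in PT cells. Rfx5, a subunit of the factor at the X box, was detected at 1.65 ± 0.278 CPM in PT cells and 2.78 ± 4.29 in macrophages.

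In macrophages, up to 2 genes of each list with the largest estimates were read. None of the genes on these lists passed the test there in either comparison, so the counts describe the sign of estimates. Irf1, a transcription factor induced by interferon gamma, differed by -1.32 (SE 0.47) between AKI-CKD and Control (edgeR, unadjusted p = 0.0115, adjusted p = 0.717). Of 5 tested genes of that list, 2 had an estimate above 0 and 3 below it for AKI-CKD against Control, with a median of -0.24, and 4 above and 1 below with EGT, with a median of 0.37. The medians over all genes tested were 0.0036 and 0.0048. Tap1, which carries peptides to class I molecules, differed by -1.15 between AKI-CKD and Control (SE 0.50, adjusted p = 0.799), and Psmb8, an immunoproteasome subunit, by -0.76 (adjusted p = 0.843). Of 8 class I genes tested, 2 estimates were above 0 and 6 below it in that comparison, with a median of -0.057, and 5 above and 3 below with EGT, with a median of 0.21. For the 7 proteolysis and loading genes, 7 estimates were above 0 for AKI-CKD against Control, with a median of 0.13, and 2 above and 5 below with EGT, with a median of -0.15. Of these, Ifi30, the lysosomal thiol reductase, differed by 0.59 between AKI-CKD and Control (adjusted p = 0.913). With EGT, Ctsd differed by -0.57 (adjusted p = 0.822) and the costimulatory gene Cd86 by 0.38 (adjusted p = 0.904), and Marchf1, a ligase that removes class II from the surface, by -0.14 between AKI-CKD and Control (adjusted p = 0.996).

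The genes whose levels followed the chains most closely over 18 cell types were Pld4 (Pearson r = 0.962), Gm6377 (0.959), Rnase6 (0.956), Btk (0.945) and Cd83 (0.943), among 10940 genes compared on log2(CPM + 1). Of the members, H2-DMa had r = 0.990 with the mean of H2-Aa, H2-Ab1, H2-Eb1 and Cd74, Ciita 0.959 and H2-DMb1 0.880. Pld4, an endolysosomal nuclease, was at 623 CPM in macrophages, 606 in dendritic cells, 56.0 in B cells and 0.348 in PT cells. The cell types share mice and libraries, so these r values describe a likeness and carry no p.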

How the data were processed

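The authors deposited, for each of 9 mice, a gene by cell matrix of whole UMI counts, made per the labels with PISA 1.0 on GRCm39 and not normalized. The lowest total was 1000 UMIs, so a minimum had been applied. Cell names run anew in each library (62337 of 98290 distinct names occur in more than 1), so shared barcodes cannot be counted.

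The members, lists and tests were chosen with earlier results of these data known. Cells were kept with at least 1000 UMIs, 500 genes and at most 15% mitochondrial UMIs, which left more cells than the study kept. Counts were log-normalized. From 2000 variable genes, without the members, the pathway lists, mitochondrial and ribosomal genes, 30 components were corrected with Harmony and clustered (Leiden, 20 neighbours, resolution 1.1, the best of 5 runs by modularity, a rule set after other partitions had been seen). A name needed 3 markers at 2-fold. Leukocytes were clustered again.

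Summed counts were tested in 1 fit of 9 mice with edgeR 4.0.16 (quasi-likelihood, TMM, filter on low counts) and with DESeq2 1.42.0 as an alternative, in R 4.3.3. P-values were adjusted by Benjamini-Hochberg across every gene tested. Single values were compared by exact two-sided permutation with numpy 2.4.6 in Python 3.11.15. The exact intervals of cell percentages came from scipy 1.17.1. Intervals of log2 differences are the estimate and its SE under a normal approximation. The test scripts were tested on simulated counts. Each group has 3 libraries, taken as 3 mice, and p-values measure the spread between them. The text names the 7 members, H2-Ea, up to 2 genes per list with the largest differences in macrophages and the 5 most alike genes. A gene that this rule would name is not reported here. H2-DMb2, H2-Oa, H2-Ob, H2-Eb2, Ctss, Rfx5, the differences of the other class II chains, the interferon cluster, thin limb cells and the subsets were singled out after their values were seen. Separation in thin limb cells and B subsets was counted over genes at a CPM worth 10 UMIs at the median depth in at least 3 mice. RefSeq tables use GRCm38.p6, another build than the files, and gave promoter sequences and their positions only.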

Additional observations from a re-analysis of the deposited data

How the results depend on the processing

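Of 358 counts of called members under alternatives, 1 was above 0, in DCT cells with EGT and no filter on low counts, where 1 member was called (H2-Aa, adjusted p = 0.0282). The alternatives were DESeq2, other scalings and limits, doublet scores, clustering without Harmony or with all variable genes, fewer mice and, added after seeing the data, the unnamed leukocytes or without the interferon cluster. Of 1348 log2 differences in all kept, immune, tubular, macrophage and B cells, 153 changed sign, 23 of them by at least the SE of the estimate. Dendritic, PT, LOH and DCT cells are not in that count. Scaling by total UMIs without TMM moved the median of all genes to between 0.13 and 0.23 with EGT in all kept, immune, tubular, PT and DCT cells, and to -0.11 in immune cells for AKI-CKD against Control. Totals without mitochondrial, ribosomal and Malat1 counts moved it to between 0.13 and 0.24 in the former. The cause of these changes was not tested.

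Without the highest doublet scores, H2-Aa and H2-Ab1 in B cells with EGT were at 0.22 and 0.095. Without each mouse in turn, the AKI-CKD against Control range in all kept cells was -0.61 to 0.20 for Cd74, -0.43 to 0.50 for H2-Aa, -0.32 to 0.59 for H2-Ab1 and -0.061 to 0.51 for H2-DMb1. In immune cells it was -0.28 to 0.28 for H2-Aa, -0.17 to 0.28 for H2-Ab1, -0.20 to 0.33 for H2-DMa and -0.38 to 0.059 for H2-Eb1. In macrophages it was -0.33 to 0.27 for H2-Ab1 and -0.57 to 0.042 for H2-DMa, in tubular cells -0.15 to 0.39 for H2-Ab1 and in B cells -0.046 to 0.45 for H2-DMa. With EGT it was -0.037 to 0.78 for Cd74 and -0.35 to 0.22 for H2-DMb1 in all kept cells, -0.21 to 0.29 for H2-Aa and -0.14 to 0.30 for H2-Eb1 in immune cells, -0.26 to 0.44 for H2-Aa in macrophages and -0.34 to 0.18 for H2-DMa in B cells. In tubular cells it was -0.44 to 0.16 for H2-Ab1, -0.15 to 0.19 for H2-DMa and -0.41 to 0.055 for H2-DMb1.

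The cell shares ranged from -0.0258 to 0.226 points for B cells (AKI-CKD against Control) and, with EGT, from -0.0279 to 0.0297 for dendritic and -0.119 to 0.182 for T cells. As a share of cells not of PT, dendritic and T cells with EGT were at -0.299 and -0.575 points. The tubular share of member UMIs, AKI-CKD against Control, was -0.146 points with a mitochondrial limit of 10%, -1.29 without the highest doublet scores and -0.0641 without Harmony, and -1.87 to 2.17 without each mouse. The ratio in PT cells with an injury marker stayed above 0 in all 12 alternatives in which it could be formed, at 1.3 to 1.79 without each mouse. It could not be formed without the highest doublet scores, or with at least 2 UMIs of Havcr1 and Vcam1 (29 marked cells). In each of these settings 1 mouse had no member UMI in the marked cells, and 7 mice were higher.

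Mice of the same number showed no common deviation (correlations of -0.45 to 0.38 in all kept cells, -0.42 to 0.32 in PT cells and -0.33 to 0.14 in macrophages). In all kept cells, mice of different number ran from -0.40 to 0.47. The numbers thus gave no sign of pairing, which so few mice cannot exclude. With the replicate number as a block, 0 members were called in 18 tests. The 68 log2 differences in all kept, immune, tubular, macrophage and B cells ran from -1.23 to 1.00, 6 with another sign. Depth limits Ciita, with 1070 UMIs in all kept cells, and the sums over dendritic cells and macrophages, with as few as 22 and 29 cells in a mouse.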

Other observations

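The 1341 unnamed leukocytes held 16.4% of the members' UMIs in 0.681% of the kept cells. Their summed level of the 7 genes was 13088 ± 2512 CPM over 9 mice (SD), between B cells (11617 ± 2984) and dendritic cells (53795 ± 7643). A median of 0.533% of a cell's UMIs came from the members, and 7.98% of the cells had none. With these cells added, the macrophage log2 difference of Ciita was -1.10 for AKI-CKD against Control and 0.98 with EGT.

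T cells had a summed level of 252 ± 429 CPM, an SD above the mean, with a range of 68.1 to 1392 CPM. Collecting duct principal cells had 135 ± 79.4 CPM and intercalated cells 90.6 ± 50.5, near podocytes at 89.2 ± 29.5 and stromal cells at 86.2 ± 30.6.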
